A study of Homo sapiens with 16 samples.

Results

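A total of 2767 peaks of G4 DNA-IPdenat lay in gene deserts, which is 17.6% (95% interval 17% to 18.2%) of the 15709 peaks in the list. They covered 5.38 Mb of the 33.4 Mb in the list. A peak was taken when it lay on an autosome, more than 100 kb from any protein-coding gene body in GENCODE version 44 and more than 5 Mb from the centromere band of its chromosome. Of the 15709 peaks, 13851 were autosomal, 10480 of these were far enough from the centromere band and 3037 of these far enough from coding genes. The last step left out 270 peaks in a stretch of 13q that ends at 94 Mb. The rule used positions only. The peak just inside the limit, chr1:229955544-229957946, lay 100043 bp from GALNT2 with a fold enrichment of 4.06, and the peak just outside it, chr18:47351557-47353093, lay 99896 bp from SKOR2 with a fold enrichment of 5.09.

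In G4 DNA-IPdenat, purified genomic DNA of untransduced HEK293T, a line of human embryonic kidney cells, was heat-denatured, snap-chilled and immunoprecipitated with 1H6, an antibody raised against G-quadruplexes. The other 8 lists came from the same DNA without denaturation (G4 DNA-IPnat), from fixed and sheared chromatin of untransduced cells (G4-ChIP), and from AbC G4-ChIP, in which the antibody entered permeabilized cells before the final fixation. The AbC G4-ChIP cells carried a non-targeting shRNA (CT) or an shRNA against CGGBP1, a protein that binds CGG repeats (KD), in the sets nuc, ut (control DNA added to the lysate) and tr (control DNA transfected). Each list stood for 1 library pooled from 4 replicates, so no spread between replicates could be measured, differences had no test other than that of KD against CT over the 3 sets, and all intervals are exact and cover counting error only. The lists gave no read counts, so the depth behind each fold enrichment could not be read from them. The paper gives total reads for the DNA-IP, G4-ChIP and nuc libraries, which were not used here.

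A G-quadruplex is a fold of single-stranded DNA in which stretches of guanines stack as tetrads, and its usual signature is a series of GGG runs set apart by short loops. Gene deserts are long stretches between coding genes, low in GC and rich in L1 (LINE-1) elements, the retrotransposons that have copied themselves throughout mammalian genomes. A complete L1 holds a promoter, ORF1, which encodes an RNA-binding chaperone, and ORF2, which encodes the endonuclease and reverse transcriptase that make new copies. The sense strand of L1 is rich in adenine and poor in thymine.

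Most gene desert peaks were pieces of L1. Windows of 200 bases show examples of the rest. Each comes from the centre of a member without an L1 match, on its A-rich strand, with each GGG or CCC in capitals. They are the member of highest fold outside tandem repeats, the member with most canonical signatures, and the member of highest fold among those in most lists.
Highest fold, chr9:64124682-64124881, plus strand: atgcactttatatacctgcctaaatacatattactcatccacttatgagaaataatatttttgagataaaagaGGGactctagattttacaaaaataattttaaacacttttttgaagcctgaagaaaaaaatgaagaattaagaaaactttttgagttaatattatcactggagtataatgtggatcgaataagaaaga
Most signatures, chr1:228622838-228623037, minus strand: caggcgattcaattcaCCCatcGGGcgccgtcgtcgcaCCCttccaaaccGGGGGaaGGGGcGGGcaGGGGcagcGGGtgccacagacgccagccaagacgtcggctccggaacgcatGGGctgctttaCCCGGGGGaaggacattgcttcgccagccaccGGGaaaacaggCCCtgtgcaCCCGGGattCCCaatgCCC
Most lists, chr1:143188576-143188775, plus strand: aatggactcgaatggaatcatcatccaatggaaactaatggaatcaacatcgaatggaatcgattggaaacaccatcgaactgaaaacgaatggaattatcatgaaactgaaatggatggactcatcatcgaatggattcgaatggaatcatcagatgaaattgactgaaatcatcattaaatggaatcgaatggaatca
The first, in a peak of fold 21.86, has 42% A and 32% T and no match to L1. The second lies among the 5S ribosomal RNA genes and has a GC content of 67%, and its peak of fold 4.75 holds 21 signatures. The third lies in a tandem repeat in which the pentamer GGAAT and its complement recur, in a peak of fold 16.00 that overlapped all 8 other lists.

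Gene desert peaks kept to a narrow range of base content. Their median GC content was 38.3% (quartiles 37.4% and 39.1%), and 91.3% of them had between 35% and 42%. Cut into 390539 tiles of 1621 bp, the median peak length, the desert itself had a median GC content of 37.4% with wider quartiles of 34.2% and 41.1%, and 47.9% of the tiles lay between 35% and 42%. The inequality of A and T on the reference strand, the difference of their counts divided by the sum, set the peaks further apart. Its median was 0.35 (quartiles 0.324 and 0.377) in the peaks and 0.0655 (quartiles 0.0295 and 0.13) in the tiles. It exceeded 0.3 in 85.9% of the peaks (95% interval 84.5% to 87.1%) and in 5.24% of the tiles, of which 83.2% were L1 over more than 50% of their bases. These traits were shared with the rest of the list: the inequality exceeded 0.3 in 71.9% of all peaks, 83.5% of intron peaks and 83.4% of peaks within 100 kb of a coding gene, and 89.5% of all peaks had between 35% and 42% GC.

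**Figure D1:**
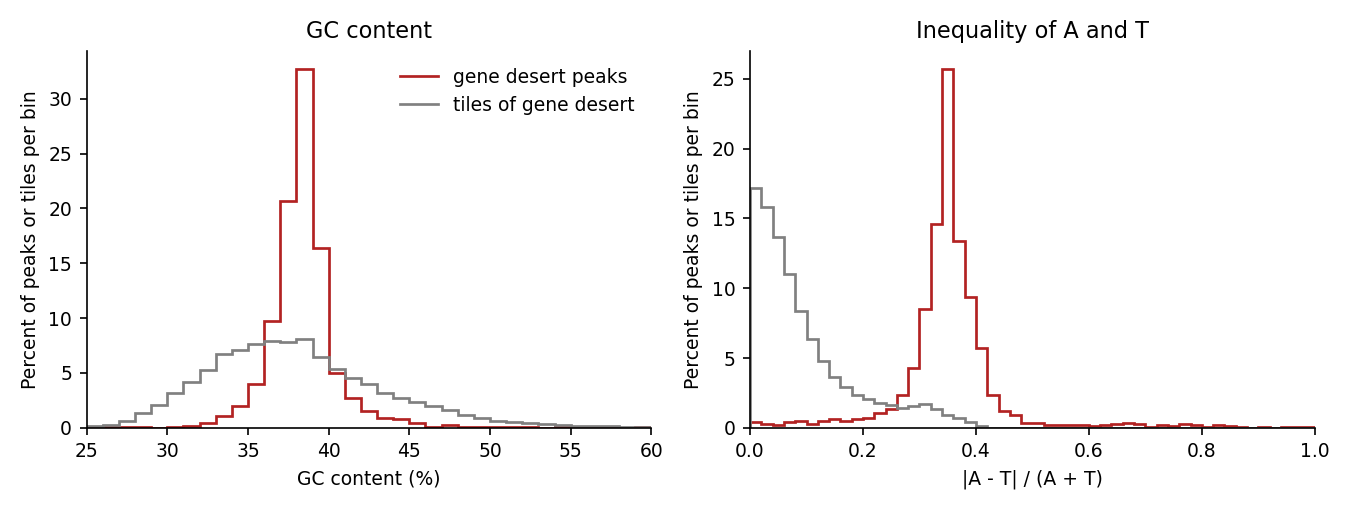
GC content (left) and inequality of A and T (right) of the 2767 gene desert peaks in red and of the 390539 tiles of gene desert in grey, each as the percent of peaks or tiles per bin. The peaks form a narrow group around 38.3% GC and 0.35, while the tiles spread widely in GC and mostly lie below 0.13 in inequality.

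L1 matches, found by a search of hg38 with an intact copy after this base content had been seen, made up more than 50% of the bases in 2334 members, or 84.4% (95% interval 82.9% to 85.7%). The share was 66.5% in the whole G4 DNA-IPdenat list, 73.2% in the 4005 peaks within introns of coding genes and 73.7% in the 3258 peaks within 100 kb of a coding gene. In 1898 members every base was L1, and 323 had no match. Requiring 25% or 75% of the bases gave 86.7% or 79.9%, and counting only matches of at least 80% identity gave 79%. Of the 2334, 2327 had more A than T on the sense strand of their match. The members are treated in 3 classes from here on: these 2334 L1 peaks, 66 peaks in tandem repeats and 367 others.

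The peaks lay over the coding part of L1 and left its ends uncovered. In the gene deserts, 2502 near-full-length copies (at least 5000 matching bases) were found, and 1454 of them were overlapped by a peak. Counted over the matches that make up these copies, the first 900 bases, which hold the promoter, were covered in 1.23% of cases. Coverage was 15.6% across ORF1 and 29.7% across ORF2, where it was highest at position 3050 with 44.8%. In the first part of ORF2 it was 37.6% and in the last part 22%. After ORF2 it was 3.53%. In the copies with a peak, coverage was 75.9% at position 3050 and 0.992% at position 50, the lowest point.

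**Figure D2:**
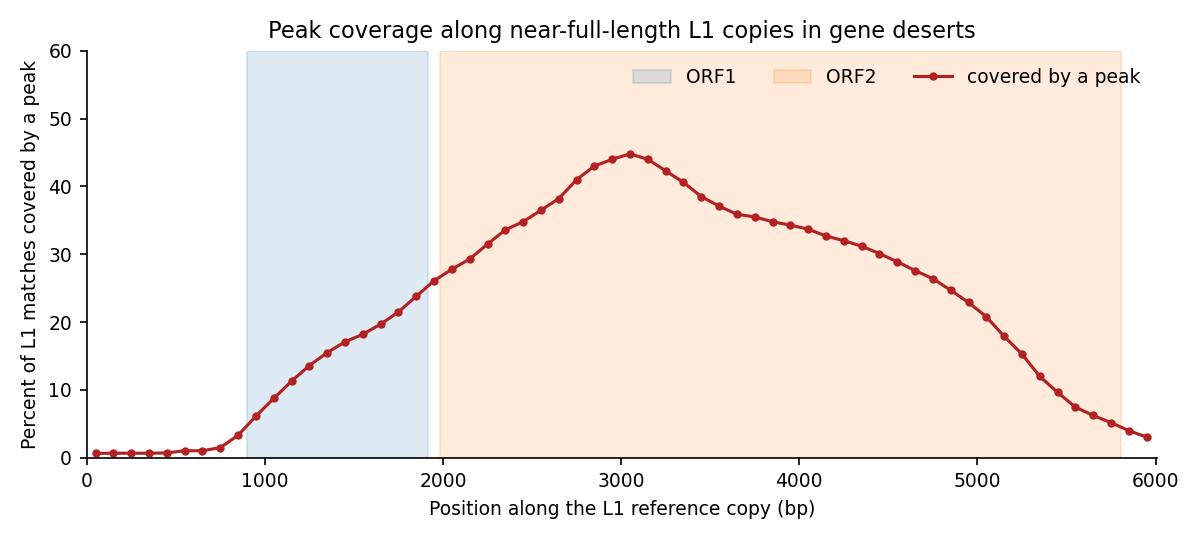
Percent of the matches making up near-full-length L1 copies in gene deserts that are covered by a peak, against the position along the 6008 bp element (bp), with ORF1 and ORF2 shaded. Coverage is lowest at position 50 (0.658%), climbs through ORF1 to 44.8% at position 3050 in ORF2, and falls to 3.07% at position 5950.

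The canonical signature, a series of 4 or more GGG runs spaced by loops that are 1 to 7 bases long, lay elsewhere on the element. It was found 1934 times in the desert copies, and 1886 of these lay after ORF2, in 1820 copies, always with the guanines on the sense strand. Of the 1886, 70 lay within a peak, which is 3.71% (95% interval 2.9% to 4.67%). Another 45 signatures lay before ORF1, and none of them was in a peak (95% interval up to 7.87%). Copies with a signature anywhere had a peak in 60.9% of cases (95% interval 58.6% to 63.1%, 1826 copies), and copies without one in 50.6% (95% interval 46.8% to 54.4%, 676 copies). The signature occurred in 7.5% of the L1 peaks (95% interval 6.46% to 8.64%).

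A near-full-length copy had a peak less often in a desert than near genes. The share was 58.1% in deserts (95% interval 56.2% to 60.1%), 70.2% within 100 kb of a coding gene (68.1% to 72.2%) and 69.8% in coding gene bodies (68% to 71.6%). Copies under 85% identity to the reference copy made up 15.5% of the desert copies and 7.91% of those in gene bodies. Weighted to the identity classes of gene bodies, the desert share was 61.2%. Counting only peaks with a -log10 q of at least 4, 4.48% of desert copies and 5.46% of gene body copies had a peak. With all peaks, the shares were 33.9% and 49.3% from 3000 matching bases on, and 67.1% and 72.8% from 5900 on. In each of the 7 identity classes the desert share was below both others, but the intervals lay apart from both only under 90% identity: 23% (18.9% to 27.5%) in deserts against 45% (38% to 52.2%) in gene bodies for copies under 85%, and 58.9% (55% to 62.8%) against 69.7% (66.3% to 72.9%) for copies of 85% to 90%.

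In deserts the share with a peak rose from 23% of the least similar copies to 76.2% (71.1% to 80.8%, 315 copies) at 94% to 96% identity. It was 62.5% (57.9% to 66.9%, 461 copies) at 96% to 98% and 43% (34.9% to 51.3%, 149 copies) above 98%. The covered length of a copy with a peak moved with it, with a median of 2804 bp at 94% to 96% and 1406 bp above 98%. The list rests on uniquely aligned reads, and the youngest copies resemble each other most, and the part of this in the fall above 96% was not tested. The fold enrichment of L1 peaks differed little with identity, with a median of 4.31 at 85% to 90%, 4.49 at 94% to 96% and 4.84 above 98%.

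**Figure D3:**
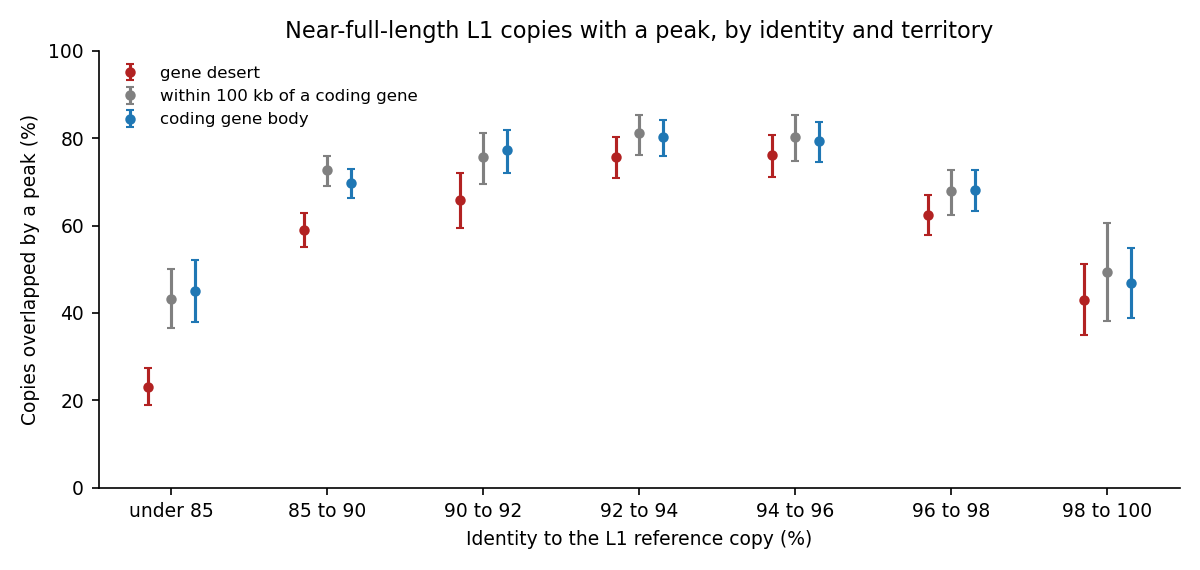
Percent of near-full-length L1 copies overlapped by a peak, by identity to the reference copy, in gene deserts (red), within 100 kb of a coding gene (grey) and in coding gene bodies (blue), with exact 95% intervals. Shares rise to 76.2% in deserts at 94% to 96% identity and fall to 43% above 98%, and desert copies sit lowest in each class.

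How often a copy had a peak differed widely between chromosome arms. The copy number of the arms and the input libraries were not analysed, and their part in this was not tested. Among the 27 arms with at least 20 desert copies, the share with a peak ran from 21.4% on 8p (95% interval 10.3% to 36.8%, 42 copies) to 85.7% on 1q (75.3% to 92.9%, 70 copies). The arms 4q (34.1%, 28% to 40.5%, 232 copies) and 13q (37.2%) were also low, and 1p (85.3%), 6q (76.6%, 69.6% to 82.6%, 175 copies) and 3p (74.7%) were high. Copies outside the deserts followed a similar order, with 17.6% on 8p, 44.5% on 4q, 86.3% on 1q and 84.5% on 6q. Across the 27 arms the shares inside and outside deserts had a Pearson's r of 0.88 and a Spearman's rho of 0.79, which describe 1 library and have no test. In 25 of the 27 arms the desert share was the lower.

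**Figure D4:**
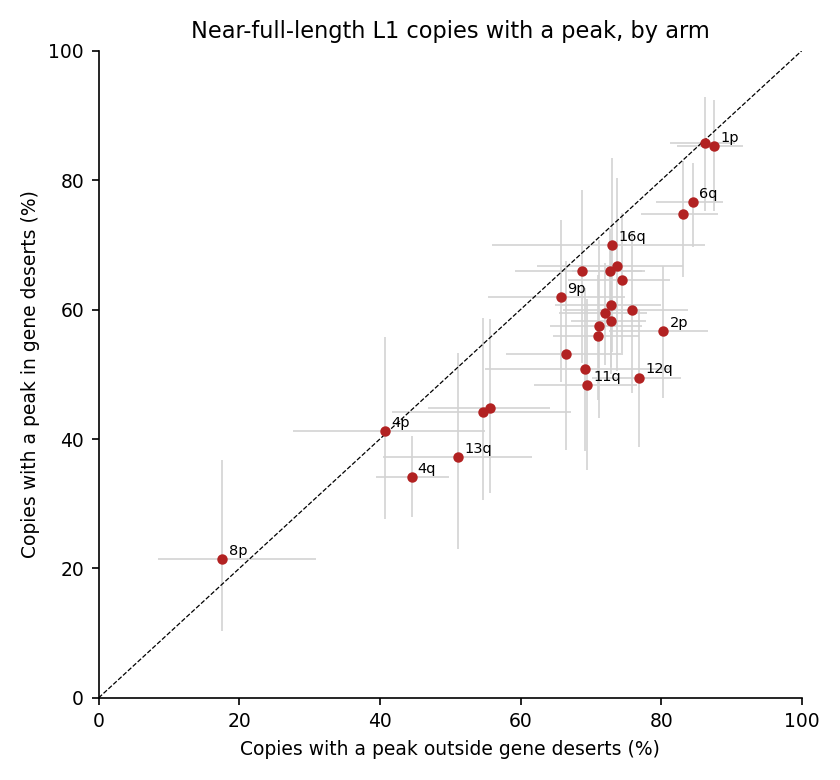
Percent of near-full-length L1 copies with a peak in gene deserts (y axis) against the percent outside them (x axis), 1 point for each of the 27 chromosome arms with at least 20 desert copies, with exact 95% intervals in grey and the line of equal shares dashed. Arm 8p is lowest on both axes (21.4% and 17.6%), 1p and 1q are highest, and 25 arms lie below the line.

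Every autosome but chromosome 19, which has 0.235 Mb of gene desert, held members. Chromosome 1 had most with 347, followed by chromosomes 5 (293), 6 (285), 2 (253) and 3 (253). Among the 18 chromosomes with at least 10 Mb of desert, the density ran from 2.31 peaks per Mb on chromosome 13 (95% interval 1.63 to 3.18) to 8.33 on chromosome 1 (7.48 to 9.25). The low value of chromosome 13 rests on the stretch left out by the rule, since with its 270 peaks the chromosome would have 8.03 per Mb (7.16 to 8.98, 38.2 Mb). Chromosome 4, with 67 Mb of desert, had only 2.42 peaks per Mb (2.06 to 2.82) although its 4.22 near-full-length copies of L1 per Mb outnumbered the 3.48 of chromosome 1. Peaks and near-full-length copies per Mb had a Pearson's r of 0.44 and a Spearman's rho of 0.62 over the 18 chromosomes, again a description of 1 library. Chromosome copy number was not analysed, and its part in these densities was not tested.

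Deserts as a whole were intermediate in peak density. They held 4.36 peaks per Mb of known sequence (95% interval 4.2 to 4.53, 634 Mb), against 5 per Mb (4.83 to 5.17) within 100 kb of coding genes and 3.49 per Mb (3.38 to 3.6) in coding gene bodies. L1 matches made up 10.1%, 7.11% and 4.9% of the bases of these territories in the same order. Peaks that were not mainly L1 were sparsest in deserts, with 0.683 per Mb against 1.31 and 0.952.

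Members were spread through the deserts, with a mean of 229 kb of desert per peak. Whether they lay closer together than this density alone would give was not tested. Within a desert, neighbouring peaks lay a median of 76 kb apart (quartiles 32.2 and 193 kb), and 8.73% of 2004 such gaps were at most 10 kb. Joined at gaps of up to 100 kb, 1753 members formed 597 runs of at least 2 peaks and 1014 stood alone. Of the runs, 78 held at least 5 peaks. The longest, chr6:85782996-86093069 and chr1:60216623-60724227, held 14 peaks each, of which 14 and 11 were L1 peaks, with median folds of 4.42 and 4.53. Next was chr8:85648017-85871922, with 12 peaks in 224 kb, 11 of them mainly L1, but with a median fold of 7.78 and a highest fold of 11.52.

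The 192 deserts of at least 1 Mb held 1337 members, and 4 of these deserts held none. Their median density was 3.34 peaks per Mb (quartiles 2.13 and 5.77). The densest, chr6:85778734-86837527 between ENSG00000271793 and HTR1E, a serotonin receptor gene, had 22 peaks at 20.8 per Mb (95% interval 13 to 31.5), of which 21 were L1 peaks, and 17 of its 25 near-full-length copies had a peak. Then came a desert between CD109 and COL12A1 on chromosome 6 with 13.3 per Mb, those between PDCD6IP and ARPP21 (12.1) and between DPPA4 and NECTIN3 (11.7) on chromosome 3, and that between HS3ST5 and FRK on chromosome 6 (10.8). From 13 to 16 of the 14 to 19 peaks in each of these were L1 peaks, and none was a tandem repeat. Most peaks in a single desert, 30, lay between AMY1C and PRMT6 on chromosome 1, at 9.68 per Mb, 26 of them L1 peaks. Over the 192 deserts, peaks per Mb and near-full-length copies per Mb had a Pearson's r of 0.67, without a test.

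The median distance of members to a coding gene was 273 kb and the greatest 5294 kb, and 706 members (25.5%) lay more than 500 kb away. A lncRNA gene overlapped 951 members (34.4%), and 1768 (63.9%) overlapped no GENCODE gene of any type. The same shares of the desert sequence as a whole were not measured, so these counts do not set the members apart from it.

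Members had a slightly lower fold than the other autosomal peaks, and their lengths did not differ beyond the intervals. Their median length was 1621 bp (95% interval 1551 to 1720, quartiles 820 and 2696), against 1698 bp (1657 to 1730) in the 11084 other autosomal peaks, and 31.2% were shorter than 1 kb. The median fold enrichment, as MACS2 gave it, was 4.5 (95% interval 4.48 to 4.54, quartiles 4.21 and 5.02). It was 4.72 (4.70 to 4.74) in the other autosomal peaks and 4.57 (4.54 to 4.59) in intron peaks. The list was called without a local lambda, a background estimated around each peak, so the fold is not set against the input at each locus. The lowest fold was 3.90, the lowest of the whole list. A fold of 10 was reached by 28 members (1.01%) and by 1.73% of the whole list. The share was 0.35% in intron peaks and 0.829% in peaks within 100 kb of a coding gene.

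L1 peaks were long and weak, and the others short and strong. The L1 peaks had a median length of 1852 bp and a median fold of 4.43 (95% interval 4.40 to 4.45). The 367 other peaks had 680 bp and 5.56 (5.45 to 5.68), and the 66 tandem repeats had 701 bp and 6.69 (5.94 to 7.17). L1 peaks made up 96.2% of the 1377 members with a fold under 4.5, 61.5% of the 455 members between 5 and 6, and 37.3% of the 59 members of at least 8. At a -log10 q of at least 4, 512 members were left, and 230 of them, or 44.9% (95% interval 40.6% to 49.3%), were L1 peaks. Under the same limit, L1 made up 28.7% of the 4163 peaks left in the whole list. It made up 36.8% of 819 intron peaks and 34% of 712 peaks within 100 kb of a coding gene. Most L1 peaks of the deserts therefore lay under this limit, close to the authors' calling threshold.

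GGG and CCC triplets were about as frequent in the members as in the deserts around them. Members held a median of 18.1 GGG or CCC triplets per kb (95% interval 17.9 to 18.2, quartiles 16 and 19.8), and the tiles 19.1 (quartiles 13.6 and 25.9). The canonical signature was present in 242 members, or 8.75% (95% interval 7.72% to 9.86%), in 9.88% of the tiles and in 9% of the whole list. The comparison with the tiles turned for the stronger peaks: at a -log10 q of at least 4 the share was 13.3%, with a median length of 754 bp, and in tiles of 754 bp it was 4.78%. It was present in 23 of the 66 tandem repeats (34.8%, 95% interval 23.5% to 47.6%) and 44 of the 367 others (12%, 8.85% to 15.8%). Neither GGG nor CCC occurred in 3 members, or 0.108% (95% interval 0.0224% to 0.317%), against 0.255% of the whole list and 0.0108% of the tiles of 1621 bp.

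Among the 367 other peaks, the inequality of A and T exceeded 0.3 in 242. An uninterrupted run of at least 10 A or T lay in 194, which is 52.9% (95% interval 47.6% to 58.1%). Such a run occurred in 14.6% of the L1 peaks, 25.6% of the whole list and 32.8% of the tiles of 1621 bp. No L1 match lay in 260 of the 367 (70.8%), against 80% of the desert tiles, and for 197 none lay within 1 kb. The search used an intact copy, and older L1 families were not annotated, so older L1 in these peaks can have been missed. Of the 367, 27 were within 5 kb of a near-full-length copy, and the share of desert sequence that lies so close was not measured.

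Tandem repeats, 2.39% of the members and 8.45% of the whole list, supplied the longest and many of the strongest peaks. The 3 longest members, of 41290, 17163 and 9506 bp, lay next to each other in chr1:143194942-143276385, where the pentamer ATTCC and its complement, the unit of classical satellites, filled 22.9% to 24.1% of the bases, with folds of 13.37, 11.08 and 9.06. Of the 66 tandem repeats, 33 lay within 25 Mb of a centromere band and 5 within 1 Mb of a chromosome end, and 10 held the pentamer in more than 10% of their bases.

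The highest fold of all members, 21.86, belonged to chr9:64123246-64126317, a peak of 3072 bp that lay 1156 kb from FOXD4L5, a forkhead gene. It had no L1 match and was no tandem repeat, and its A and T were nearly equal, with an inequality of 0.000503. The second was the satellite peak chr1:143184763-143192588 with 16.00, 702 kb from the histone gene H3-7. The third was chr10:133762415-133764222 with 15.66, 136 kb from FRG2B near the end of 10q. The fourth, chr1:191078504-191079310, was the strongest L1 peak with a fold of 15.07 over 807 bp. It lay within the lncRNA ENSG00000285638, 600 kb from BRINP3, and overlapped none of the other lists. The fifth, chr3:9921-10873, lay at the start of chromosome 3 with a fold of 14.86, 191 triplets per kb, 3 signatures and 61.2% of its bases in simple repeats.

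Few gene desert peaks overlapped a peak of another list. No other list overlapped 2707 of them, or 97.8% (95% interval 97.2% to 98.3%), and 60 overlapped at least 1, which is 2.17%, against 18% of the other autosomal peaks. The overlap with G4 DNA-IPnat was 14 members, or 0.506% (95% interval 0.277% to 0.847%), and 1.25% in the whole G4 DNA-IPdenat list. For G4-ChIP it was 20 members, or 0.723% (0.442% to 1.11%), against 2.05% in the whole list. For CTnuc it was 30 or 1.08% against 5.46%, and for KDnuc 36 or 1.3% against 7.37%. For CTut it was 44 or 1.59% against 10.1%, and for KDut 40 or 1.45% against 6.88%. For CTtr and KDtr it was 44 each, or 1.59%, against 6.7% and 5.78%. The members' share was below that of the whole list for each of the 8 lists. At a -log10 q of at least 4 it rose to between 2.73% (G4 DNA-IPnat) and 6.84% (CTtr), against 4.56% to 24.9% of the 4163 peaks of the whole list, and was again the lower for each list. It was not the lowest among territories, since the lists overlapped 0.0499% to 0.699% of intron peaks and 0.338% to 1.35% of peaks within 100 kb of a coding gene.

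The classes differed in how many members they shared. At least 1 other list overlapped 16 of the 66 tandem repeats (24.2%), 14 of the 367 others (3.81%) and 30 of the 2334 L1 peaks (1.29%). Median fold was 4.49 in the members of no other list and 7.53 in the 39 that were in at least 4, which are 1.41% of the members against 5.89% of the whole list. Median length was 1606 and 3603 bp in the same order.

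These 39 members lay at 12 loci, joined at gaps of up to 1 Mb. The locus chr8:85648017-85825401 held 11, among them 10 mainly of L1, and GENCODE places processed pseudogenes there, among them REXO1L1P and REXO1L2P. Their folds ran from 6.38 to 11.52, and the strongest, of 6388 bp, overlapped all 8 lists with folds between 5.26 in G4 DNA-IPnat and 9.00 in CTut. Another 6 lay in chr9:62803524-63823942 with folds of 4.20 to 6.27, and 5 tandem repeats in chr1:143184763-144104646. In the longest of the latter, of 41290 bp, the highest overlapping fold was 8.90 in G4 DNA-IPnat, 15.14 in G4-ChIP, 24.79 in CTnuc, 25.28 in KDnuc, 11.53 in CTut, 12.83 in KDut, 10.64 in CTtr and 11.99 in KDtr. In chr9:79177449-79855316, 4 L1 peaks lay to either side of TLE4, a corepressor of transcription and had folds of 6.11 to 8.29. In chr16:46380614-46402182, 4 satellite peaks had folds of 10.03 to 14.39. The locus chr1:228608687-228626842 held 3 among the 5S ribosomal RNA genes, with a GC content of 65.7% to 67.8% and folds of 4.71 to 5.49, and the strongest, over RNA5S1, overlapped all 8 lists. In all, 10 members were in all 8 lists: 3 of the locus on chromosome 8, 4 satellites on chromosome 1 and 1 on chromosome 16, that over RNA5S1 and that near FRG2B. The peak near FRG2B had folds of 7.96 in G4 DNA-IPnat, 4.79 in G4-ChIP and 9.38 to 20.42 in AbC G4-ChIP.

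Seen from the other lists, gene deserts held 8.41% of the 226 G4 DNA-IPnat peaks, 11.3% of the 1455 G4-ChIP peaks and 3.63% to 5.53% of the peaks in the 6 AbC G4-ChIP lists, each below the 17.6% of G4 DNA-IPdenat. G4 DNA-IPnat and G4-ChIP were called at a narrower bandwidth than the other lists. Of the 19 desert peaks of G4 DNA-IPnat, 18 overlapped G4 DNA-IPdenat, and of the 165 desert peaks of G4-ChIP, 20 did. In AbC G4-ChIP the share ran from 11.8% of 400 in KDnuc to 38.1% of 118 in CTtr. Few of these peaks were mainly L1: 2 of 19 in G4 DNA-IPnat, 14 of 165 in G4-ChIP (8.48%), 6 of 179 in CTnuc (3.35%), 14 of 400 in KDnuc (3.5%), 11 of 127 in CTut (8.66%), 7 of 144 in KDut (4.86%), 6 of 118 in CTtr (5.08%) and 8 of 132 in KDtr (6.06%). Of the desert tiles, 9.19% had L1 over more than 50% of their bases, which lay within the intervals of all but CTnuc and KDnuc. CTnuc and KDnuc alone were sequenced on an IonTorrent, with shorter reads than the DNA-IP and G4-ChIP libraries, and the part of this was not tested.

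Knockdown of CGGBP1 was set against the control in the 3 sets of AbC G4-ChIP. The share of gene desert peaks overlapped was 1.08% in CTnuc and 1.3% in KDnuc, 1.59% in CTut and 1.45% in KDut, and 1.59% in both CTtr and KDtr. KD minus CT was 0.217 percentage points in nuc, -0.145 in ut and 0 in tr, with a mean of 0.0241 ± 0.182 (SD, n = 3). The exact two-sided sign-flip permutation test over the 3 sets gave p = 1.0, where the smallest p that 3 sets allow is 0.25. The sign of the mean was not stable: it was -0.0723 without nuc, and -0.0155 per Mb when each share was divided by the length its list covered. KDnuc covered 10.2 Mb and CTnuc 5.32 Mb, and per Mb the nuc difference was -0.0758. The members in both lists of a set numbered 29 in nuc, 38 in ut and 37 in tr.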

How the data were processed

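The nuc libraries were sequenced on an IonTorrent and the others on a MinION. Reads of the nuc libraries were shorter than those of the DNA-IP and G4-ChIP libraries. The authors aligned reads to hg38 without the Y chromosome, mitochondrial DNA and unplaced sequences with minimap2, and kept unique alignments. They called broad peaks with MACS2 against the input. G4 DNA-IPdenat and AbC G4-ChIP had a cutoff of 0.01, no local lambda and a wider bandwidth than G4-ChIP and G4 DNA-IPnat. Versions are not given in the sources used here. The fold enrichment (a ratio to the background that MACS2 used), the p-value and q-value as -log10, and the score were used as deposited by the authors.

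Members and lists were chosen with earlier results of these data known. Centromere bands were written from knowledge of hg38, and 98.7% of 10 kb windows of alpha-satellite period lay within 5 Mb of them. L1 was found with blastn 2.17.0 (word size 11, e-value 1e-10), with the intact copy nearest the majority of 130 as the query (copies with ORFs of 338 and 1275 codons, the commonest pair). Copies with at least 5000 matching bases were called near-full-length. Tandem repeats match themselves at over 60% at a lag of up to 500 bases or hold over 10% ATTCC or its complement. Overlap means at least 1 bp. Shares have Clopper-Pearson intervals, densities Poisson intervals and medians binomial intervals, at 95%. Named regions were, by rule, the 5 members of highest fold, the 3 longest, up to 10 in most lists, the 5 densest deserts and the 3 longest runs. The shared loci and the desert with most peaks were chosen after their values were seen, and chromosome 13 with the left-out stretch, shorter tiles and whole-list overlaps at the q limit were added then. Alternatives were other distances, margins, q limits, gaps, loops and overlaps. The sequence of L1 members is not reported here. Repeats other than L1 and tandem repeats were not annotated, nor were older L1 families that the query does not match. Functions were tested on simulated data. Python 3.11.15, numpy 2.4.6, pandas 2.3.3, scipy 1.17.1 and pysam 0.24.0 were used.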

Additional observations from a re-analysis of the deposited data

Results flagged for a closer look

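The share of gene desert peaks overlapped was higher in KD than in CT in the nuc set, by 0.217 percentage points, and lower in the ut set, at -0.145. The sets moved in opposite directions with 1 library on each side, and the difference between them was not tested. Divided by the length each list covered, the nuc difference was -0.0758 percentage points per Mb, so its direction turned.

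A signal also stood in a part of the list that the comparisons above do not use. On the X chromosome, 646 of 1858 G4 DNA-IPdenat peaks lay more than 100 kb from a coding gene. Of these, 533 were L1 over more than 50% of their bases, which is 82.5%. Their median fold enrichment was 4.69 and their median inequality of A and T was 0.339.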

How the results depend on the processing

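Of 79 alternatives, 34 kept the result, 43 moved it and 2 reversed its sign. Kept means a value within its interval or a count within 1.5 times. For KD minus CT it means the same sign only. With a limit of 200 kb the members numbered 1814, with genes of every type 406, and with a -log10 q of at least 4 they numbered 512. The last limit gave 0.807 peaks per Mb in deserts, 1.09 within 100 kb of a gene and 0.722 in gene bodies. It moved the medians to 754 bp in length, a fold of 6.02, 38.5% GC and 17.9 triplets per kb, the signature to 13.3% and the L1 share to 44.9%. The central 500 bp had 38.2% GC, runs counted once gave 15.5 triplets per kb, and loops of up to 12 bases gave 10.7% with the signature. Overlap shares at the q limit were 2.73% (G4 DNA-IPnat), 2.93% (G4-ChIP), 4.69% (CTnuc), 5.27% (KDnuc), 6.25% (CTut and KDut), 6.84% (CTtr) and 6.64% (KDtr). Requiring 50% of the peak gave 0.253% (G4 DNA-IPnat) and 0.361% (G4-ChIP). Requiring 70% gave 0.108% and 0.217% for these, 0.904% (KDnuc), 0.976% (KDut), and 1.08% (CTtr and KDtr). Outside tandem repeats the values were 0.185% (G4 DNA-IPnat), 0.407% (G4-ChIP) and 1.07% (KDtr).

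The choices on L1 were added after the data had been seen. The L1 share was 86.7% at a limit of 25%, 79.9% at 75% and 79% with matches of at least 80% identity. Copies with a peak made up 33.9% in deserts and 49.3% in gene bodies from 3000 bases on, 67.1% and 72.8% from 5900 bases on, and 4.48% and 5.46% at the q limit. The cause of these moves was not tested. For KD minus CT, leaving out each set gave -0.0723 to 0.108 percentage points, the lowest without nuc, and division by the covered length of each list gave -0.0155 per Mb. The exact permutation without the replicate block (the pairing by set) gave the same mean, 0.0241, and p = 1. Whether the samples of a set deviate together was not checked.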
